A study of Mus musculus with 13 samples.

Results

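Matricellular proteins are secreted into the extracellular matrix but, unlike collagens, do not build its fibers. They bind other matrix proteins, growth factors and cell surface receptors, and provisional matrix proteins such as fibronectin and versican are laid down early in wound repair. Senescent cells secrete matrix proteins and proteases together with cytokines as part of the senescence-associated secretory phenotype (SASP), and fibroblasts are a main source of these proteins.

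The 10 genes described here are Spp1, Sparc, Sparcl1, Thbs1, Thbs2, Thbs3, Tnc, Postn, Fn1 and Vcan. They were chosen by name as matricellular and provisional matrix genes, were matched to the mouse GRCm39 annotation, and make 10 of the 57010 genes listed. All 10 passed the filter on low counts and were among the 15034 genes tested.

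The study sequenced RNA of mouse embryonic fibroblasts (MEFs) to ask how Fucoidan-FV, a sulfated polysaccharide from the brown seaweed Fucus vesiculosus, acts on the transcriptome of senescent cells. All MEFs were wild type (WT). The control group was not made senescent and is labelled untreated, while the study's methods name a vehicle. The senescent group received 2 μM etoposide, a topoisomerase II inhibitor that breaks DNA, for 24 h, then 5 days in normal medium, and no Fucoidan-FV. Both treated groups were etoposide-induced senescent MEFs that received Fucoidan-FV at 100 μg/mL or at 300 μg/mL for 12 h before RNA extraction. Each of the 4 groups held MEFs of mice 4, 5 and 6, which gave 3 samples per group. Whether the cells of a mouse were separate cultures in each group is not given in the sources used here, so p-values measure the spread between these samples.

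The 13 libraries held 22782536 to 31278750 expected counts each, and the 10 genes took 3.54% to 5.92% of the counts of a library. Control mouse 5 has 2 libraries, which were summed. Levels are given as CPM (the count of a gene over the TMM-scaled total of its library, times 1000000). The 9 fibroblast markers summed to 10595 to 16509 CPM over all samples. Every marker was above 0 in some sample of each group, and the lowest control sample of Lum was at 0. Markers of other cells summed to at most 15.9 CPM for macrophages, 11.7 CPM for endothelium, 2.04 CPM for epithelium and 121 CPM for skeletal muscle. The 6 cartilage and bone markers summed to 619 to 864 CPM in control, 228 to 352 CPM in senescent and 116 to 226 CPM in treated MEFs. Col2a1 alone made most of this sum, with 616 to 853 CPM in control and 218 to 348 CPM in senescent MEFs. Of the 4 tested, 2 were higher and 2 lower with senescence and at 100 μg/mL against senescent MEFs. The 5 smooth muscle markers, which activated fibroblasts also express, summed to 6504 to 8888 CPM in control, 6187 to 10413 CPM in senescent MEFs, 3559 to 5238 CPM at 100 μg/mL and 4087 to 5107 CPM at 300 μg/mL. At both doses 4 of the 5 were lower than in senescent MEFs and 1, Myh11, was higher. In bulk RNA, fewer cells of a type and less RNA per cell cannot be told apart.

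Some libraries stood apart in ways that touch these genes. In the senescent sample of mouse 6, the longest sixth of all tested genes had a median log2 CPM 0.78 below the mean of the other senescent samples, and the shortest sixth had one 0.83 above it. The difference between the longest and the shortest sixth was -1.61 in that sample and -0.23 to 0.92 in the 11 others. Fn1, Vcan, Tnc and Thbs2 belong to the longest sixth. The libraries also differed in how highly genes with 1 main transcript stood against genes with many transcripts, with an index (log2 scale) of -1.51 in the lowest library, of control mouse 6, and 1.20 in the highest, of the 100 μg/mL sample of mouse 5. For Thbs1, Thbs2 and Sparcl1, 93.3%, 87.0% and 80.7% of the exonic bases lie in 1 transcript only.

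A gene was called when its adjusted p was under 0.05 and its absolute log2 fold change was over 1, by edgeR's quasi-likelihood test with Benjamini-Hochberg adjustment over all tested genes. In senescent against control MEFs 1 of the 10 genes was called, and it was higher, where 8.42% of all tested genes were called and 4.47% were called higher. At 100 μg/mL against senescent MEFs 2 of 10 were called, both higher, where 2.69% of all genes were called and 1.10% were called higher. At 300 μg/mL 1 of 10 was called, also higher, where 1.64% were called and 0.752% were called higher. The 3 genes concerned were Spp1, Thbs2 and Vcan. The median log2 fold change of the 10 genes in these comparisons was 0.15, 0.07 and 0.25, against 0.07, -0.02 and 0.00 over all tested genes.

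The promoters of the 3 called genes are shown as the 250 bases before the annotated start of each gene, since they are the genes whose RNA level differed. They were read from the GRCm39 genome in the direction of transcription. Spp1 lies on the plus strand (window chr5:104581915-104582164), Vcan on the minus strand (window chr13:89890815-89891064) and Thbs2 on the minus strand (window chr17:14914529-14914778). Capitals mark matches, on either strand, to TATAAA (the TATA box), to TGANTCA (the AP-1 site), to CCAAT (bound by NF-Y), to GGGCGG (the GC box) or to the CArG box (bound by serum response factor).
Spp1: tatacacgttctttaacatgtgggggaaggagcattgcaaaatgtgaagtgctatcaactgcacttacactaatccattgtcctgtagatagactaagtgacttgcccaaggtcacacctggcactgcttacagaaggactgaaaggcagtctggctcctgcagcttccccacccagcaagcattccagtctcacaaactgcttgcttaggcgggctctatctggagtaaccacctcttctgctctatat
Vcan: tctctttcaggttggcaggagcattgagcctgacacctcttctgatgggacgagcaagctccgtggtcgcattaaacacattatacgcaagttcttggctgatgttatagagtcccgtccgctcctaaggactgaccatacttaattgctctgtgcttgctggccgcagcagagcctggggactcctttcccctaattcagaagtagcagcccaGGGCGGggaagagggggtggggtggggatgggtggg
Thbs2: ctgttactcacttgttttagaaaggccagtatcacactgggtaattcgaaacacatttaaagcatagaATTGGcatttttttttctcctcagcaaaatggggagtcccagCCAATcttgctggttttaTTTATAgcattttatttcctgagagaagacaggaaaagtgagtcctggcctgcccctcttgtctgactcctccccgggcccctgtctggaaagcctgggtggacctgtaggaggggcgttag
The Spp1 window held none of the 5 motifs. The Vcan window held 1 GGGCGG, which began 36 bases before the start, and 36.3% of 21770 promoter windows of the same length held that motif. The Thbs2 window held 1 TATAAA at 122 bases before the start and 2 CCAAT matches at 182 and 140 bases, motifs found in 11.9% and 36.5% of windows. TGANTCA and the CArG box, found in 6.17% and 1.40% of windows, were in none of the 3, and the 3 windows shared no motif. A match describes letters only and is no sign of binding, and a missing match says nothing of the factor.

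Spp1 encodes osteopontin, a secreted phosphoprotein that binds integrins and CD44 and is a known SASP factor. Its gene lies on chromosome 5 from 104582165 to 104589235. The Spp1 level was 387, 287 and 478 CPM in control mice 4, 5 and 6, and 1420, 1289 and 1082 CPM in senescent MEFs. Every senescent sample lay above every control sample. Spp1 rose 3.29-fold with senescence (log2 fold change 1.72, SE 0.27, adjusted p = 0.00129), by log2 1.88, 2.17 and 1.18 within mice 4, 5 and 6. The call was kept in all 28 alternatives run, 12 of which left out 1 sample each. Some of these left out a treated sample, whose level does not enter this comparison. Another 1 only dropped the fold threshold and so could not lose the call. The macrophage marker sum was 0.470 to 4.36 CPM in control and 2.40 to 15.9 CPM in senescent MEFs, and its part in the Spp1 difference was not tested. Spp1 shares 12.7% of its exonic bases with a gene on the same strand, Gm42793.

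With Fucoidan-FV the Spp1 level was 591, 482 and 908 CPM at 100 μg/mL and 755, 472 and 692 CPM at 300 μg/mL. By CPM, all 6 treated samples lay below the 3 senescent samples, and at 100 μg/mL all 3 lay above the control samples. Against senescent MEFs the log2 fold change of Spp1 was -0.94 at the lower dose, with an SE of 0.27 and an adjusted p of 0.0651, and -0.98 at the higher dose, with an SE of 0.27 and an adjusted p of 0.0849, so neither passed the test. With the mouse as a block, the adjusted p was 0.0453 and 0.0555, and the fold change at 100 μg/mL stayed under the threshold. Without the 100 μg/mL sample of mouse 6, whose level was the highest of the treated samples, the value was -1.24 (adjusted p = 0.0419) and Spp1 was called. Within mouse 6 the log2 difference at 100 μg/mL was -0.25, against -1.27 and -1.42 in mice 4 and 5. Against control MEFs the log2 fold change of Spp1 was 0.78 at the lower dose, whose adjusted p was 0.0437, and 0.74 at the higher dose, whose adjusted p was 0.0592, under the fold threshold at both doses.

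**Figure D1:**
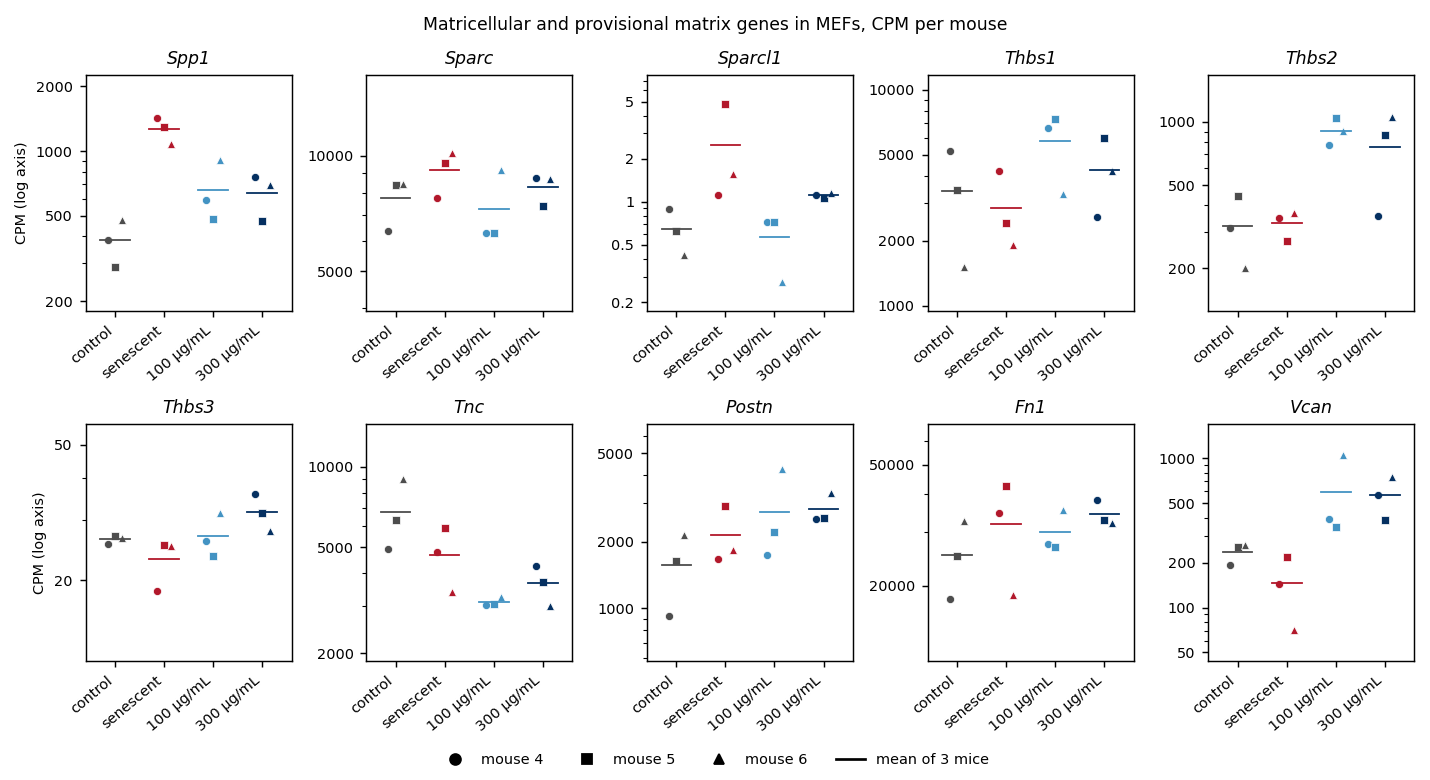
CPM of the 10 genes (log axis, range set for each gene) in control MEFs, senescent MEFs and senescent MEFs with 100 or 300 μg/mL Fucoidan-FV. Points are mice 4, 5 and 6 and bars are means of 3 mice: Spp1 is highest in the senescent samples (1082 to 1420 CPM), and Vcan is highest in the treated ones (344 to 1056 CPM).

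Vcan encodes versican, a large chondroitin sulfate proteoglycan that binds hyaluronan. It lies on chromosome 13 from 89803431 to 89890814 and had 192, 254 and 264 CPM in control mice 4, 5 and 6. In senescent MEFs the Vcan level was 145, 220 and 70.4 CPM, which overlapped the controls (log2 fold change -0.71, SE 0.44, adjusted p = 0.356). The low value belongs to mouse 6, the library with the length trend. Vcan was then 390, 344 and 1056 CPM at 100 μg/mL and 566, 383 and 745 CPM at 300 μg/mL. All 6 treated samples lay above all senescent and all control samples.

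Against senescent MEFs, Vcan rose 4.12-fold at 100 μg/mL (log2 fold change 2.04, SE 0.46, adjusted p = 0.0283) and 3.90-fold at 300 μg/mL (log2 1.96, SE 0.46, adjusted p = 0.0455). Within mice 4, 5 and 6 the log2 difference was 1.43, 0.65 and 3.91 at 100 μg/mL and 1.97, 0.80 and 3.40 at 300 μg/mL, so that mouse 6 gave the widest difference at both doses. With the mouse as a block, neither call was kept (log2 1.89, adjusted p = 0.0661 and log2 1.88, adjusted p = 0.0943). Without senescent mouse 6, Vcan was 1.81 higher on the log2 scale at the lower dose, with an adjusted p of 0.0492, and 1.68 higher at the higher dose, with an adjusted p of 0.0792. At 100 μg/mL the call was also lost without the 100 μg/mL sample of mouse 6 (log2 1.34, adjusted p = 0.0937) and without senescent mouse 4 (2.16, adjusted p = 0.0512). The adjusted p at 300 μg/mL was 0.199 without the 300 μg/mL sample of mouse 6, 0.105 without that of mouse 4 and 0.0682 without that of mouse 5. It was 0.0748 without senescent mouse 4, 0.0567 without control mouse 5 and 0.0549 without the 100 μg/mL sample of mouse 4. With the other groups left out of the fit, the adjusted p was 0.0974 at the lower and 0.0625 at the higher dose, and with control library 5(2) alone it was 0.0548 at the higher. With offsets for the length trend of each sample, chosen after seeing the data, Vcan was called at both doses, and the direction was higher in every alternative.

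Against control MEFs, Vcan was called higher at 100 μg/mL (log2 1.33, SE 0.45, adjusted p = 0.0417), while the higher dose missed the threshold (log2 1.25, adjusted p = 0.0566). The higher dose was called with DESeq2 (adjusted p = 0.0267), only the 2 groups compared (0.0058) and libraries 5(1) and 5(2) separate (0.0324). It was also called with no filter, at least 10 counts in every sample, and the index with or without the block. Leaving out senescent mouse 5 or 6 or the 100 μg/mL sample of mouse 6 gave the call as well. The block moved the adjusted p at 100 μg/mL to 0.0749, and the length trend offsets gave log2 0.94 (adjusted p = 0.0623), or 0.84 with the block added (adjusted p = 0.0698). Without the 100 μg/mL sample of mouse 6, the value was 0.63 (adjusted p = 0.261), and the call was also lost without control mouse 4 (0.0851), control mouse 5 (0.0625) and the 300 μg/mL sample of mouse 4 (0.0548). These comparisons do not use the senescent samples' levels, so the low senescent library of mouse 6 enters them through the shared spread and scaling alone. Between the doses Vcan differed by -0.08 (SE 0.44, adjusted p = 0.979).

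Thbs2 encodes thrombospondin-2, which binds CD36 and CD47, clears matrix metalloproteases and restrains new vessels. It lies on chromosome 17 from 14885761 to 14914528. The Thbs2 level was 312, 446 and 200 CPM in control mice 4, 5 and 6 and 350, 271 and 369 CPM in senescent MEFs, which overlapped (log2 fold change 0.05, adjusted p = 0.961). It was 776, 1041 and 909 CPM at 100 μg/mL, above every senescent and control sample. With 300 μg/mL it was 355, 865 and 1053 CPM, and by CPM, though not by the length-scaled TPM given below, mouse 4 stayed within the senescent range. Thbs2 rose 2.76-fold at 100 μg/mL (log2 1.46, SE 0.36, adjusted p = 0.0407), and its log2 fold change at 300 μg/mL was 1.20 (SE 0.35, adjusted p = 0.109).

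The Thbs2 call at 100 μg/mL was kept in 4 of the 12 fits that left out 1 sample. Each of those 4 left out a control or 300 μg/mL sample, whose levels do not enter this comparison. The block gave log2 1.43 with an adjusted p of 0.0616. Without senescent mice 4, 5 or 6 the adjusted p was 0.0654, 0.101 and 0.0846, and without the 100 μg/mL samples of mice 4, 5 or 6 it was 0.0863, 0.145 and 0.0844. It was 0.0553 without control mouse 4 and 0.0602 without the 300 μg/mL sample of mouse 5. The log2 fold change stayed between 1.35 and 1.70 in these fits. With control library 5(2) alone the adjusted p was 0.0941, with both libraries of control mouse 5 as separate samples 0.117, and with length trend offsets 0.121, or 0.130 with the block added. Thbs2 was called at 300 μg/mL without the sample of mouse 4 (log2 1.54, adjusted p = 0.0267).

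Against control MEFs, Thbs2 was called higher at both doses (log2 1.51, SE 0.36, adjusted p = 0.00718 and log2 1.25, SE 0.35, adjusted p = 0.0207). The call at 100 μg/mL was kept in all 12 fits without 1 sample, but not with library 5(2) alone for control mouse 5 (log2 1.10, adjusted p = 0.0921). That at 300 μg/mL was lost without control mouse 4 (adjusted p = 0.0634), control mouse 6 (0.0695) and the 300 μg/mL samples of mouse 5 (0.0667) and mouse 6 (0.104). It was also lost with library 5(2) alone (log2 0.84, adjusted p = 0.197), with both libraries of control mouse 5 as separate samples (0.0915), in a fit of only the 2 groups compared (0.0523) and with length trend offsets (0.0855, or 0.133 with the block added).

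The 2 libraries of control mouse 5 bear on Thbs1, Thbs2 and Sparcl1, since both come from 1 group and 1 mouse. Scaled by the library total, they held 159 and 729 CPM of Thbs2, 1740 and 4972 CPM of Thbs1 and 0.164 and 1.10 CPM of Sparcl1. The log2 differences of 2.20, 1.52 and 2.75 each exceeded the fold change of Thbs2 at either dose. For Vcan the 2 libraries differed by -0.06, for Spp1 by -0.67 and for the remaining 5 genes by -0.68 to 0.54. The transcript length that RSEM, the counting program, estimated for Thbs2 ran from 3446 to 5377 bases over the libraries, and that of Thbs1 from 1674 to 3828 bases. Within the 300 μg/mL group the sample of mouse 4, lowest in Thbs1 and Thbs2, also had the lowest index of genes with 1 main transcript (-1.34, against 0.50 and 0.10 in mice 5 and 6). The 3 samples at 100 μg/mL had index values of 1.05, 1.20 and -0.31, and the 3 senescent samples 0.23, -1.07 and 0.49. With this index as a covariate, chosen after seeing the data, Thbs2 was called at both doses, with an adjusted p of 0.0305 at 300 μg/mL.

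**Figure D2:**
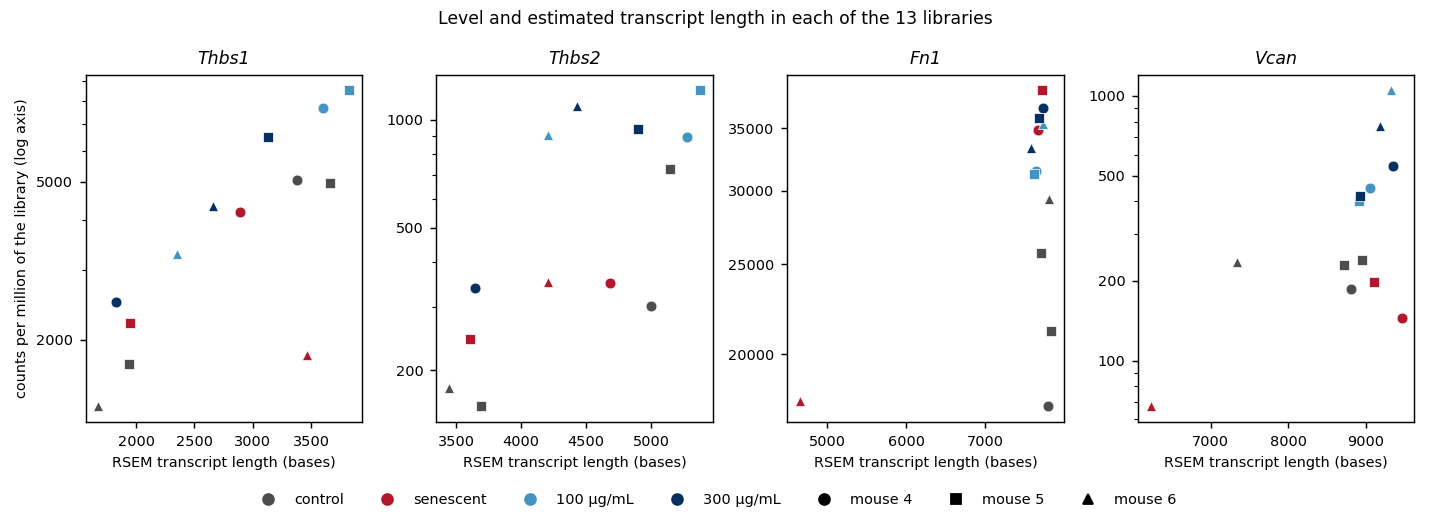
CPM of the library (log axis) against the transcript length estimated by RSEM (bases) for Thbs1, Thbs2, Fn1 and Vcan in the 13 libraries, colored by group and shaped by mouse. Thbs1 runs from 1674 to 3828 bases across libraries, and the senescent library of mouse 6 stands apart for Fn1 at 4650 bases.

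Thbs1 encodes thrombospondin-1, an activator of latent TGF-β that binds CD36 and CD47, and lies on chromosome 2 from 117941974 to 117957616. The Thbs1 level was 5224, 3433 and 1515 CPM in control mice 4, 5 and 6 and 4203, 2426 and 1918 CPM in senescent MEFs. With Fucoidan-FV it was 6679, 7344 and 3300 CPM at 100 μg/mL and 2587, 5958 and 4210 CPM at 300 μg/mL. All groups overlapped, and in 3 of the 4 groups the 3 samples spread wider than the 4 group means did. The log2 fold change was -0.25 with senescence, 1.02 at the lower dose (SE 0.45, adjusted p = 0.233) and 0.58 at the higher (adjusted p = 0.614). With no filter beyond 1 count in total, Thbs1 was called at the lower dose (log2 1.12, adjusted p = 0.00109). Of the exonic bases of Thbs1, 11.1% lie opposite to the genes Gm13986 and Gm29233.

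Thbs3, a thrombospondin that forms pentamers, lies on chromosome 3 from 89122461 to 89134144 and ranged from 18.6 to 35.9 CPM over the 12 samples. It was 25.5 to 27.1 CPM in control, 18.6 to 25.4 in senescent, 23.6 to 31.4 at 100 μg/mL and 27.9 to 35.9 at 300 μg/mL. By CPM, the 300 μg/mL samples lay above all senescent samples, but the log2 fold change of 0.46 did not pass the test (SE 0.22, adjusted p = 0.339). Scaled by the effective lengths that RSEM gave, this difference turned to -0.03.

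Tnc encodes tenascin-C, a hexameric glycoprotein of healing wounds that binds integrins, and lies on chromosome 4 from 63878014 to 63965443. The Tnc level was 4913, 6334 and 9016 CPM in control mice 4, 5 and 6, and 4774, 5896 and 3387 CPM in senescent MEFs (log2 fold change -0.53, SE 0.25, adjusted p = 0.211). It was 3035, 3055 and 3245 CPM at 100 μg/mL and 4255, 3714 and 3003 CPM at 300 μg/mL. The 3 samples at 100 μg/mL were close to each other and, by CPM, below every senescent and control sample. Against senescent MEFs the log2 fold change was -0.59 at the lower dose (SE 0.25, adjusted p = 0.213) and -0.36 at the higher (adjusted p = 0.563).

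Against control MEFs, Tnc was called lower at 100 μg/mL (log2 -1.12, SE 0.25, adjusted p = 0.00572), and at 300 μg/mL its log2 fold change of -0.88 was under the fold threshold (adjusted p = 0.0214). At 300 μg/mL Tnc was called with length trend offsets (log2 -1.26, adjusted p = 0.000909, or -1.23 and 0.0021 with the block added). It was also called there without control mouse 4 (-1.03, 0.0133) and without the 300 μg/mL sample of mouse 4 (-1.01, 0.0292). Without control mouse 6, the highest sample, the value at 100 μg/mL was -0.69 (adjusted p = 0.0524). Without any 1 of the senescent samples it was -0.97, again under the fold threshold, with adjusted p of 0.0188, 0.0117 and 0.00488 for mice 4, 5 and 6. With the index of genes with 1 main transcript as a covariate it was -0.84 (adjusted p = 0.00434), and -0.81 with the block added (adjusted p = 0.00322), both under that threshold. In these comparisons with control, 3 of 10 genes were called at 100 μg/mL (Thbs2 and Vcan higher, Tnc lower) and 1 of 10 at 300 μg/mL (Thbs2), where 19.7% and 18.0% of all tested genes were called.

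Fn1 encodes fibronectin, the main glycoprotein of the provisional matrix and the ligand of integrin α5β1, and lies on chromosome 1 from 71624673 to 71692419. It was 18163, 25061 and 32788 CPM in control mice 4, 5 and 6 and 34821, 42455 and 18650 CPM in senescent MEFs. Mice 4 and 5 were higher in the senescent sample by log2 0.94 and 0.76, and mouse 6 was lower by 0.81. At 100 μg/mL Fn1 was 27421, 26935 and 35603 CPM and at 300 μg/mL 38321, 32948 and 32248 CPM. The log2 fold changes were 0.34 (SE 0.30, adjusted p = 0.549), -0.09 (SE 0.30) and 0.11 (SE 0.30). RSEM's length of Fn1 was 4650 bases in the senescent library of mouse 6 and 7587 to 7835 bases in the 12 other libraries.

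Postn encodes periostin, a protein of healing and fibrotic tissue that binds integrins, and lies on chromosome 3 from 54268501 to 54298471. Postn was 929, 1634 and 2153 CPM in control mice 4, 5 and 6, 1669, 2905 and 1844 CPM in senescent MEFs, 1739, 2214 and 4232 CPM at 100 μg/mL and 2526, 2549 and 3318 CPM at 300 μg/mL. The 300 μg/mL samples lay above the control samples, and the other groups overlapped. Its log2 fold change was 0.44 with senescence and 0.35 and 0.39 at the 2 doses, each with an SE of 0.35 or 0.36 and none called.

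Sparc encodes osteonectin, a collagen-binding protein, and lies on chromosome 11 from 55285317 to 55314067. It kept between 6298 and 10186 CPM over the 12 samples, and by CPM, though not always by TPM, its groups overlapped in each comparison named here. The log2 fold change was 0.24 with senescence, -0.34 at 100 μg/mL and -0.15 at 300 μg/mL (SE 0.21 each).

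Sparcl1, its relative also called hevin, lies on chromosome 5 from 104226288 to 104262065 and was the least abundant gene, with 5 to 112 expected counts per library. The Sparcl1 level was 0.892, 0.628 and 0.423 CPM in control mice 4, 5 and 6 and 1.12, 4.83 and 1.56 CPM in senescent MEFs, which did not overlap. It was 0.720, 0.719 and 0.277 CPM at 100 μg/mL, below the senescent samples, and 1.07 to 1.16 CPM at 300 μg/mL. The log2 fold change was 1.94 with senescence (SE 0.73, adjusted p = 0.111), -2.12 at 100 μg/mL (SE 0.74, adjusted p = 0.129) and -1.16 at 300 μg/mL. DESeq2 called both of the first differences (adjusted p = 0.0231 and 0.0309). Senescent mouse 5 held the highest level, and without it the first value was 1.06 (adjusted p = 0.420) and the second -1.04 (adjusted p = 0.475).

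**Figure D3:**
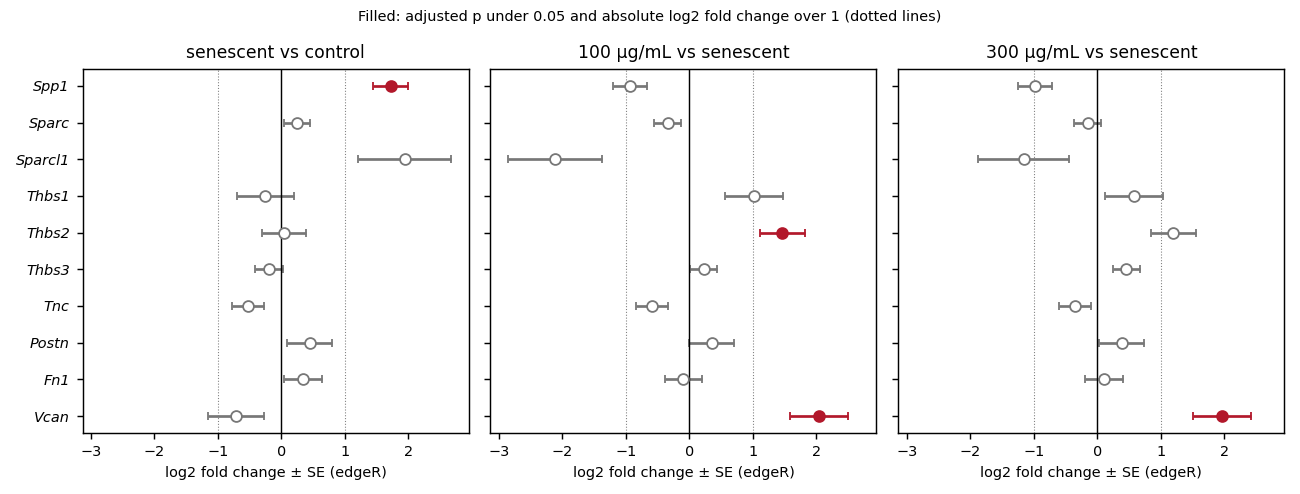
Log2 fold change with its SE (x axis) of the 10 genes in senescent against control MEFs and in 100 or 300 μg/mL Fucoidan-FV against senescent MEFs, from 3 mice per group. Filled points passed the test: Spp1 at 1.72, Thbs2 at 1.46, and Vcan at 2.04 and 1.96.

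By CPM, the groups of 3 of the 10 genes did not overlap in senescent against control MEFs, 5 of 10 at 100 μg/mL against senescent and 3 of 10 at 300 μg/mL against senescent, where 27.1%, 26.2% and 19.6% of all tested genes did not overlap. Between the doses, none of the 10 genes was called, and the log2 difference of 300 against 100 μg/mL ran from -0.44 for Thbs1 to 0.96 for Sparcl1. None of the 10 had an unadjusted p under 0.05, the smallest being 0.206, DESeq2 called 0, and 0.00665% of all tested genes were called. An SE of 0.21 to 0.72 lay behind these differences. A call needed a difference well over its SE and over 1 on the log2 scale, so smaller differences between the doses could be missed.

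Levels can be compared between genes per unit of length, for which the TPM values of RSEM, transcript abundances scaled by length, were used. In control MEFs the mean TPM was 5314 ± 668 for Sparc and 4114 ± 1058 for Fn1 (SD, n = 3), which overlapped. Then came Thbs1 at 1696, Tnc at 1213, Postn at 689, Spp1 at 405, Thbs2 at 96.5, Vcan at 36.3, Thbs3 at 15.2 and Sparcl1 at 0.353. Of these neighbors, Thbs1 and Tnc, and Postn and Spp1, overlapped between mice. In senescent MEFs Spp1 stood at 1415 ± 390 TPM, above Postn at 996 and Tnc at 897, but it overlapped with Thbs1 at 1607, with Postn and with Tnc. With Fucoidan-FV, Spp1 stood at 973 ± 207 TPM at 100 μg/mL and 857 ± 123 TPM at 300 μg/mL, behind Postn at 1629 and 1577 TPM, which it overlapped at 100 μg/mL and not at 300 μg/mL. By TPM, Spp1 at 100 μg/mL overlapped the senescent samples, with 1194 against 1016 in mouse 6. Tnc at 100 μg/mL did so too, with 720 to 844 against 553 in senescent mouse 6. Thbs1, which overlapped by CPM, did not overlap by TPM, with at most 2301 in senescent and at least 2373 in treated samples. Thbs2 at 300 μg/mL had 149, 322 and 389 TPM in mice 4, 5 and 6. The highest senescent sample had 113 TPM of Thbs2 and the highest control sample 130. Sparc did not overlap by TPM between control (4543 to 5710) and senescent MEFs (5859 to 6918), or between senescent MEFs and 300 μg/mL (7101 to 7546). Thbs3 overlapped by TPM between senescent MEFs (11.4 to 21.4) and 300 μg/mL (19.7 to 22.1). Vcan was 22.4 ± 9.47 TPM in senescent MEFs, 109.3 ± 55.7 TPM at 100 μg/mL and 97.3 ± 27.3 TPM at 300 μg/mL, and Sparc and Fn1 held the 2 highest means in all 4 groups.

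The receptors of these proteins were described from a list of 16 genes, of which 15 were tested. In senescent MEFs 2 were called higher, and at each dose 2 were called lower, the same numbers as by DESeq2. Of all tested genes, 4.47% were called higher with senescence, and 2.69% and 1.64% were called in either direction at the 2 doses. Itga5, the α chain of the fibronectin receptor, had 1429, 1765 and 2164 CPM in senescent mice 4, 5 and 6, 417, 470 and 405 CPM at 100 μg/mL and 506, 539 and 409 CPM at 300 μg/mL. All treated samples lay below all senescent and control samples. Itga5 fell at both doses (log2 -2.05, SE 0.21, adjusted p = 0.000442 and log2 -1.88, SE 0.21, adjusted p = 0.000955) and was called in all alternatives, while its ligand gene Fn1 had log2 fold changes of -0.09 and 0.11.

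Cd44, a receptor of hyaluronan and osteopontin, had 1201, 1027 and 709 CPM in senescent mice 4, 5 and 6, 392, 321 and 315 CPM at 100 μg/mL and 576, 390 and 295 CPM at 300 μg/mL. By CPM the treated samples lay below the senescent samples at both doses. They overlapped by TPM, with 159 to 437 in senescent MEFs, 120.5 to 192.5 at 100 μg/mL and 114 to 212 at 300 μg/mL. Cd44 fell by 1.51 on the log2 scale at 100 μg/mL (SE 0.26, adjusted p = 0.00792), a call kept in all alternatives, and by 1.22 at 300 μg/mL (SE 0.26, adjusted p = 0.0286). The call at the higher dose was lost without the 300 μg/mL samples of mouse 5 (adjusted p = 0.115) or mouse 6 (0.163), senescent mice 4 (0.0857) or 5 (0.0766), or control mouse 5 (0.0568). It was also lost in a fit of only the 2 groups compared (0.101), with control library 5(2) alone (0.0737), with both libraries as separate samples (0.0595) and with RSEM effective length offsets (0.0665).

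The receptor genes called with senescence were Itgb5 and Itga8, the chains of an osteopontin and vitronectin receptor and of a tenascin and fibronectin receptor. Itgb5 was 408 to 509 CPM in control and 900 to 1121 CPM in senescent MEFs, and rose by log2 1.14 (SE 0.19, adjusted p = 0.00181), by 1.13 to 1.14 within each mouse. Itga8 was 10.9 to 13.8 CPM in control and 77.5, 91.4 and 13.3 CPM in senescent mice 4, 5 and 6, so that mouse 6 stayed at the control level (log2 2.33, SE 0.52, adjusted p = 0.0112). Its call did not hold when control mouse 5 (adjusted p = 0.0598), senescent mouse 4 (0.0514) or senescent mouse 5 (0.0514) was left out, or with only the 2 groups compared (0.0641).

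Of 6 proteases that cleave versican, 0 were called with senescence by edgeR or DESeq2 and 0 had an unadjusted p under 0.05 there, while 3 were called higher at 100 μg/mL and 1 at 300 μg/mL. Of all tested genes, 1.10% and 0.752% were called higher at these doses. Over the 6 the log2 fold changes had medians of 2.25 and 2.08 at the 2 doses, and DESeq2 called 5 and 4 of them higher. Adamts1 had 135, 125 and 33.1 CPM in senescent mice 4, 5 and 6, 805, 682 and 811 CPM at 100 μg/mL and 809, 654 and 750 CPM at 300 μg/mL, above every sample of both other groups. It rose by log2 2.97 (SE 0.42, adjusted p = 0.00387) and 2.91 (SE 0.42, adjusted p = 0.00501), in all alternatives. Adamts5 had 57.3, 21.3 and 32.2 CPM in senescent MEFs, 505, 487 and 195 CPM at 100 μg/mL and 94.6, 322 and 252 CPM at 300 μg/mL. It rose by log2 3.42 at 100 μg/mL (SE 0.73, adjusted p = 0.0218), and at 300 μg/mL the value was 2.59 (adjusted p = 0.0849). The call was lost without senescent mice 5 (adjusted p = 0.0867) or 6 (0.0996) and without the 100 μg/mL samples of mice 4 (0.0739) or 5 (0.0687), and with the block combined with effective length offsets (0.0520) or length trend offsets (0.0779). Adamts9 had 13.3, 13.8 and 4.96 CPM in senescent MEFs and 22.2, 27.9 and 42.8 CPM at 100 μg/mL (log2 1.54, SE 0.39, adjusted p = 0.0470). The block gave an adjusted p of 0.0755 and 8 of the 12 fits without 1 sample lost the call, with a highest adjusted p of 0.130 without the 100 μg/mL sample of mouse 6. The call held without senescent mouse 4 and without any 1 of the 3 control samples, whose levels do not enter this comparison. It was also lost with only the 2 groups compared (0.121), with either library of control mouse 5 alone (0.0569 and 0.0517) and with effective length offsets (0.0723, or 0.116 with the block added).

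**Figure D4:**
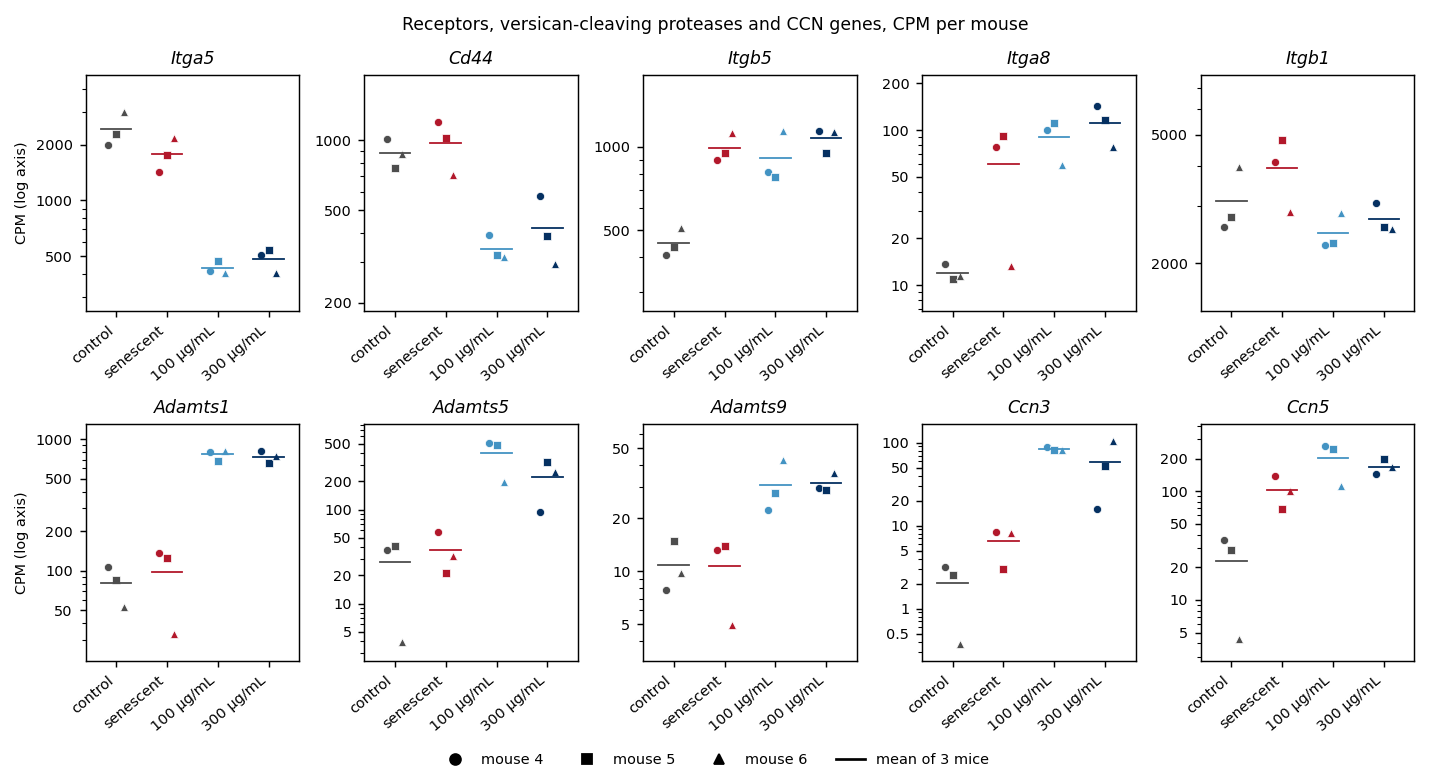
CPM (log axis, range set for each gene) of receptor genes, versican-cleaving proteases and CCN genes in the 4 groups, with points for mice 4, 5 and 6 and bars for the mean of 3 mice. Itga5 lies at 405 to 539 CPM in the treated samples and at 1429 to 2164 CPM in the senescent ones, and Adamts1 lies at 654 to 811 CPM in the treated samples. Itgb1, the partner chain of Itga5, was not called in these comparisons.

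The CCN genes, the other large family of matricellular proteins, had 5 of 6 members tested, and 1 was called higher in each of the 3 comparisons. There 4.47%, 1.10% and 0.752% of all tested genes were called higher. No CCN gene was called lower, but the most abundant, Ccn2, went the other way by CPM, named here after its values were seen. It had 4747 to 5585 CPM in senescent MEFs, 2582 to 3259 CPM at 100 μg/mL and 3107 to 4487 CPM at 300 μg/mL. By TPM, Ccn2 overlapped between senescent MEFs and both doses. Ccn5 was 35.4, 28.6 and 4.42 CPM in control mice 4, 5 and 6 and 137, 69.4 and 101 CPM in senescent MEFs (log2 2.16, SE 0.56, adjusted p = 0.0227). Its call did not hold when control mouse 5 (adjusted p = 0.0651) or senescent mouse 4 (0.0944) was left out, with only the 2 groups compared (0.0896) or with control library 5(2) alone (0.0733). Ccn3 was 8.40, 3.02 and 8.19 CPM in senescent MEFs, 88.2, 81.8 and 82.3 CPM at 100 μg/mL and 16.0, 52.9 and 104 CPM at 300 μg/mL, and no treated sample was as low as a senescent one. Ccn3 rose by log2 3.68 (SE 0.70, adjusted p = 0.0130) and 3.14 (SE 0.68, adjusted p = 0.0335). Without senescent mouse 5 the adjusted p was 0.0548 and 0.0947. The block gave 0.0783 at 300 μg/mL, and the call held in 4 of 12 fits, which left out control mice 4 or 6, the 100 μg/mL sample of mouse 6 or the 300 μg/mL sample of mouse 4. In the other 8 fits the adjusted p ran from 0.0531 without the 100 μg/mL sample of mouse 5 to 0.188 without the 300 μg/mL sample of mouse 6. With only the 2 groups compared it was 0.0793, with control library 5(2) alone 0.0512, and with the block combined with effective length or length trend offsets 0.0950 and 0.0746.

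By edgeR, 0 of the closer relatives of the 10 genes were called in these 3 comparisons. That held for the 6 SPARC relatives, the 4 of 5 thrombospondin and tenascin relatives that were tested, the periostin relative Tgfbi, and the 5 of 7 versican relatives and link proteins that were tested. The thrombospondin and tenascin relatives had median log2 fold changes of 1.94 and 1.74 at the 2 doses, the SPARC relatives 0.60 and 0.37. With an unadjusted p under 0.05 were 5 of these relatives with senescence (4 higher, 1 lower), 3 at 100 μg/mL and 2 at 300 μg/mL (all higher). The share of all tested genes at this unadjusted threshold is not given here, so these counts cannot be set against it and are no result about the relatives. DESeq2 called Tnxb higher and Acan lower with senescence and Comp higher at 100 μg/mL, named here after their values were seen. The 4 osteopontin relatives of bone and tooth matrix were not tested, having too few counts.

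Among the cell markers, the matrix proteoglycan genes Dcn (decorin) and Lum (lumican) were called higher with senescence and again at 100 μg/mL. Dcn rose from 0.726 to 1.57 CPM in control to 12.7 to 22.9 CPM in senescent MEFs (log2 3.96, adjusted p = 0.00215) and to 37.5 to 168 CPM at 100 μg/mL (log2 2.33, adjusted p = 0.0477). Lum stayed at or below 8.75 CPM in these 3 groups (log2 3.22, adjusted p = 0.0375 and log2 3.29, adjusted p = 0.0399). Col3a1, a fibrillar collagen, rose at both doses (log2 1.38, adjusted p = 0.0164 and log2 1.17, adjusted p = 0.0489). The actin-binding genes Cnn1 and Tagln fell at both doses on the log2 scale, Cnn1 by 1.21 and 1.22 (adjusted p = 0.0196 and 0.0269) and Tagln by 1.16 and 1.28 (adjusted p = 0.0384 and 0.0328). Myh11 rose with senescence (log2 1.43, adjusted p = 0.00488), Col2a1 fell by 1.41 (adjusted p = 0.00183), and Tek rose at 100 μg/mL to between 4.77 and 7.96 CPM (log2 3.58, adjusted p = 0.0446). The calls of Dcn, Col2a1 and Myh11 with senescence held in all 12 fits without 1 sample. Col3a1 at 100 μg/mL held in 11, all but that without the 100 μg/mL sample of mouse 6 (adjusted p = 0.0612). The other calls of these markers held in 2 to 5 of 12.

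The genes whose log2 CPM followed each called gene most closely over the 12 samples were found by Pearson's r, as a description over samples that share their groups. For Spp1 they were LTO1 (0.94), Ppm1a (0.92) and Pfn2 (0.92). For Thbs2 they were Gdf6 (0.98), Dmrt2 (0.97) and Aass (0.96), and for Vcan they were Il6st (0.98), Itsn1 (0.98) and Ebf3 (0.97).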

How the data were processed

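RNA was extracted after 12 h of treatment and sequenced from a stranded total RNA kit, per the study's methods. Per the submitters' processing notes and those methods, the authors checked reads with FastQC 0.12.1, trimmed them with Trimmomatic, aligned them with STAR 2.7.11b to GRCm39 (Ensembl release 109) and counted genes with RSEM 1.3.1. Whether the counting used strand is not given in the sources used here. RSEM shares reads between transcripts, so its expected counts, deposited by the authors without normalization, depend on the transcript lengths it estimated. The deposited TPM values, which RSEM scaled by length, were used for levels between genes, with no test. The joined table of expected counts that the authors deposited differed from the single tables by at most 0.

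Expected counts were rounded, control libraries 5(1) and 5(2) were summed, and filterByExpr kept genes at its defaults (10 counts, 15 in total). R 4.3.3 with edgeR 4.0.16 fitted the 4 groups together with TMM factors and no block, in 6 comparisons. CPM are TMM-scaled. DESeq2 1.42.0, other factors, filters and length corrections were alternatives. The scripts were tested on simulated data. The libraries of control mouse 5 differed by a chi-square of 160 per gene, against 58.6 to 171 for other control pairs. The labels name the same mouse in each group, which pairs the samples, though over 18 same-numbered pairs the correlation of deviations from the group means had a median of -0.00627 (-0.204 to 0.425, 8 over 0.1). Depths of 22782536 to 31278750 counts limit the precision of genes with few counts, such as Sparcl1.

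The 10 genes, the related lists, the markers and the promoter motifs were chosen with earlier results of these data known. All 10 genes were named, as were related genes and cell markers called in senescent against control MEFs or at either dose against senescent MEFs. For likeness, the 3 genes with the highest r were named.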

Additional observations from a re-analysis of the deposited data

How the results depend on the processing

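Spp1 in senescent against control MEFs was called in every alternative. The number of the 10 genes called with senescence was 1, and 2 with DESeq2 and with RSEM effective length offsets, which added Sparcl1. Of all genes tested, 1266 of 15034 were called, 1816 of 16254 with DESeq2 and 1130 of 15034 with those offsets. At 100 μg/mL against senescent MEFs, where 2 were called, 3 were called with DESeq2 (Sparcl1 added) and with no filter beyond 1 count in total (Thbs1 added), 1 was called in a fit of only the 2 groups compared (Thbs2), and 1 (Vcan) with control library 5(2) alone, with libraries 5(1) and 5(2) as separate samples, with gene length trend offsets and with these offsets and the mouse as a replicate block. With the mouse as a replicate block alone 0 were called there, and 0 to 2 in fits without 1 sample. At 300 μg/mL against senescent MEFs, where 1 was called, 2 were called with DESeq2 and with no filter beyond 1 count in total (Thbs2 and Vcan) and 2 with the replicate block and effective length offsets (Spp1 and Vcan). There 3 were called with the index of genes with 1 main transcript as a covariate, with and without the block (Spp1, Thbs2 and Vcan), and 0 with only the 2 groups compared, library 5(2) alone or the replicate block. The fits without 1 sample gave 0 to 1 there. At 300 μg/mL against control MEFs, where 1 was called, 2 were called with DESeq2, no filter, at least 10 counts in every sample, the index with and without the block, and adjusted p alone, and 0 with library 5(2) alone, and fits without 1 sample gave 0 to 2. With only the 2 groups compared and with libraries 5(1) and 5(2) as separate samples, Vcan was called there and Thbs2 was not. With gene length trend offsets Tnc was called and Thbs2 was not. Of all genes tested there, 2704 of 15034 were called, 3351 of 16751 with DESeq2 and 2457 of 14976 with library 5(2) alone. The index and the length trend, alone or with the block, were chosen after seeing the data, and the causes of these changes were not tested.

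Directions that turned were those of small differences. Thbs2 with senescence was -0.36 with library 5(2) alone and -0.13 with both libraries as separate samples, and -0.19 to 0.36 without 1 sample (-0.19 without control mouse 6, -0.01 and -0.03 without senescent mice 4 and 6). Thbs1 with senescence was -0.66 to 0.21 without 1 sample (0.21 without control mouse 4). With effective length offsets Thbs3 turned to 0.11 with senescence, -0.23 at 100 μg/mL and -0.030 at 300 μg/mL, and with the block added to 0.10, -0.20 and -0.0083. Postn at 100 μg/mL was -0.12 to 0.74 without 1 sample (-0.12 without the 100 μg/mL sample of mouse 6). Fn1 at 100 μg/mL was 0.013 with at least 10 counts in every sample, 0.18 with the index, 0.23 with the index and block, 0.05 without any 1 control mouse, and 0.14 and 0.29 without senescent mice 4 and 5, and the fits without 1 sample ranged from -0.24 to 0.29. Fn1 at 300 μg/mL was -0.074 with effective length offsets and -0.072 with the block added, -0.23 with the length trend, with or without the block, and -0.12 without senescent mouse 6, and the fits without 1 sample ranged from -0.12 to 0.40. At 100 against control, leaving out 1 senescent sample moved the median of all genes from 0.09 to 0.25, and the fold of Tnc with it. The median was 0.29 with DESeq2, but over genes not filtered for low counts. Over such genes edgeR gave 0.26, so the DESeq2 value is not like for like with 0.09. With RLE factors 174 of 321 calls at 100 μg/mL against senescent MEFs were higher, against 165 of 405 with TMM. Sparcl1 rests on 5 to 112 counts per library, and the number of mice, 3 per group, limits the precision of every gene.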
